A study of Sus scrofa with 9 samples.

Results

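The 8 genes described here encode the major histocompatibility complex (MHC) class II machinery of the pig, as measured in 3 sorted fractions of blood T cells. They are SLA-DRA, SLA-DRB1, SLA-DQA1, SLA-DQB1, SLA-DMA, SLA-DMB, SLA-DOB and CD74, out of 3052 genes that could be named on the array. Every probe whose sequence identifier belongs to 1 of these genes was taken, which gave 30 probes of 43603. Of these, 28 were bright enough in at least 1 fraction to be tested. The samples were 9 microarrays of blood T cells sorted from sows, 3 per fraction, labelled as biological replicates. They are named DP for cells sorted as CD3+CD4+CD8+, CD4 T cells for those sorted as CD3+CD4+ and CD8 T cells for those sorted as CD3+CD8+. All 3 came from mononuclear cells separated on Percoll, and none was given a treatment in the labels. The labels give the number and age of the sows for none of the fractions, do not say whether the 3 fractions with 1 number came from 1 animal, and name the CD4 and CD8 gates only by the markers present, so p-values measure the spread between these samples.

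MHC class II molecules present peptides from the endosomal pathway to CD4 T cells. Each is a pair of an alpha and a beta chain, here DRA with DRB1 and DQA1 with DQB1, which together form the peptide-binding groove. The invariant chain, encoded by CD74, fills the groove after synthesis and carries the molecule to the endosome, where DM (DMA with DMB) exchanges the remnant of the invariant chain for peptide and DO (whose beta chain is DOB) restrains DM, in humans and mice mainly in B cells. B cells, dendritic cells and, to a lesser degree, macrophages express these genes without stimulation, and the class II transactivator CIITA switches most of them on in other cells under interferon gamma. Resting mouse T cells lack class II molecules, whereas pig T cells carry them on CD8 cells and on memory cells that bear both CD4 and CD8.

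A level here is the log2 of a probe's processed signal minus the 75th percentile of its array, so 0 is the brightness that 75% of the probes stay under. The percentile signal spanned 19.0 to 42.5 in DP, 15.2 to 84.1 in CD4 T cells and 18.4 to 29.7 in CD8 T cells, and 32.6% to 53.7% of the probes per array were well above background. No spot was saturated. The arrays lay on 3 slides: slide 2 and slide 3 each held all fractions, and slide 1 held DP array 1 alone. The T cell label was borne out by CD3E, a chain of the T cell receptor complex, at 5.49 ± 0.72 in DP, 5.26 ± 0.51 in CD4 T cells and 5.39 ± 0.43 in CD8 T cells (SD, n = 3 each). CD3D and CD3G were likewise detected everywhere, and none of the 6 tested genes of a T cell list passed the test between any fractions. The coreceptors followed the gates: CD8A was higher in DP than in CD4 T cells by 3.20 ± 0.49 (log2 difference and SE, limma adjusted p = 0.0179), and CD4 was higher in DP than in CD8 T cells by 4.17 ± 0.64 (limma adjusted p = 0.0208). Of the 2 tested CD8A probes, 1 passed between DP and CD4 T cells. CD8A was still well above background on all 3 CD4 arrays, at 0.29, 0.94 and -0.40, and CD4 on 1 CD8 array.

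DP cells held more class II transcript than CD4 T cells, and the largest differences were in SLA-DRB1, SLA-DQB1 and SLA-DRA. The other peptide-binding chain, SLA-DQA1, lay near CD74, with a log2 difference of 2.16 by its median probe against 2.20 for CD74. Differences between genes were not tested. SLA-DRA was 7.18-fold higher in DP and SLA-DQB1 7.98-fold higher, and both passed the test. SLA-DRB1, SLA-DQA1 and CD74 lay 8.0-fold, 4.60-fold and 4.45-fold apart in the same direction without passing it. Of the chaperones, SLA-DMA lay 3.21-fold and SLA-DOB 1.38-fold apart in that direction, and SLA-DMB was too dim in CD4 T cells for a fold to be read. None of the 3 passed. In sorted populations such as these, fewer cells expressing a gene and less RNA per cell cannot be told apart.

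Of the 28 tested probes, 10 were higher in DP than in CD4 T cells at a limma adjusted p under 0.05, where 0.225% of all 16024 tested probes were higher. No member probe was lower, where 0.0686% of all tested probes were. Of the 10, 6 belong to SLA-DRA, 2 to SLA-DQA1 and 2 to SLA-DQB1. For 27 of the 28 probes every DP array lay above every CD4 array, against 5.22% of all tested probes. The exception was the SLA-DRA probe A_72_P610249. With each gene taken by its brightest tested probe, all 8 differences were above 0, with a median of 2.18 and a range of 0.47 to 3.00, against a median of -0.02 over all tested probes. The count rests on few arrays: without DP array 1 or without CD4 array 2 no member probe passed, and without CD4 array 3 only 1 did. Calls fell over the whole array in these fits, to 0.0125%, 0.137% and 0.0811% of all tested probes in either direction, against 0.293% with all arrays. The differences themselves were as large within slides, with a median over the 8 genes of 2.14 on slide 2 and 2.04 on slide 3 and all 28 probes above 0 on both. Slide 2 sets DP array 2 against CD4 array 2, and slide 3 sets DP array 3 against CD4 arrays 1 and 3. Each within-slide value for DP minus CD4, here and below, thus rests on a single DP array. A block for slide leaves DP array 1 without a partner, and with it no member probe passed and 0.0125% of all tested probes did.

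**Figure D1:**
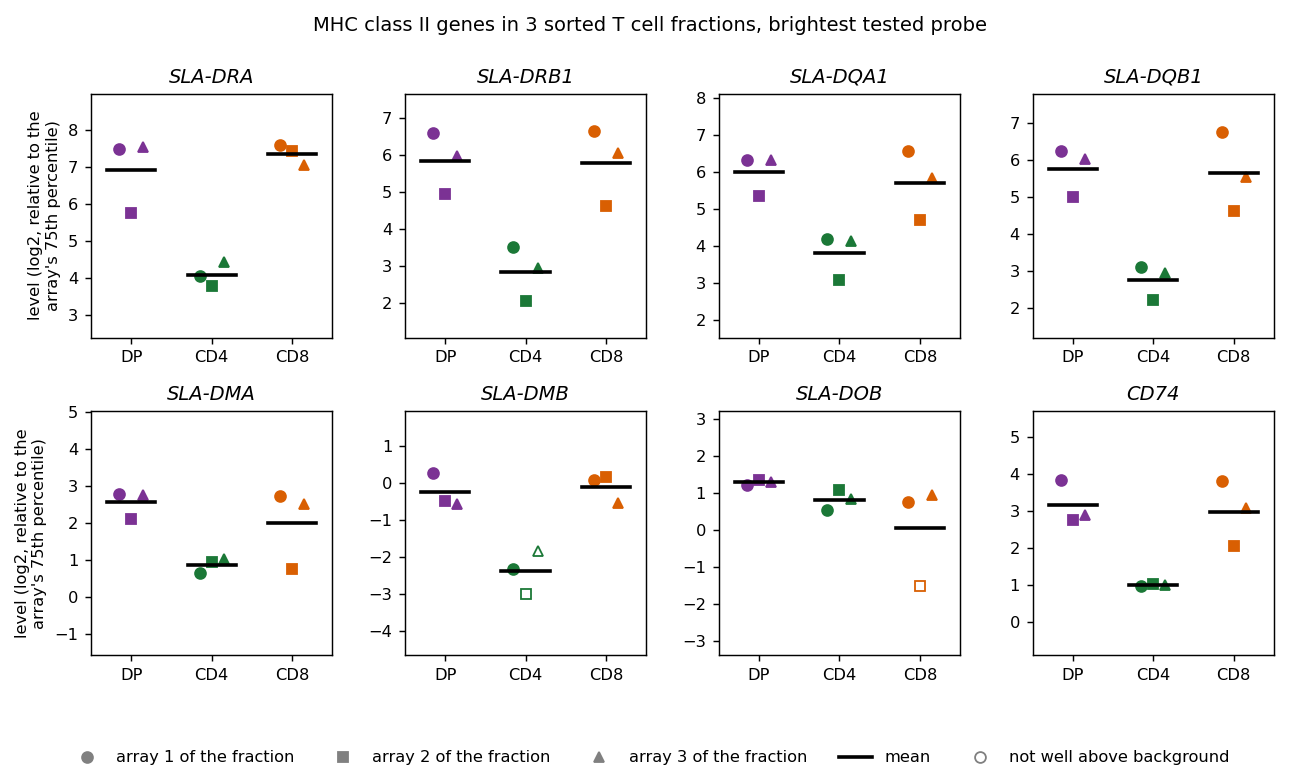
Level of the 8 MHC class II genes (y axis, log2 relative to the array's 75th percentile, brightest tested probe) in DP, CD4 T cells and CD8 T cells; points are arrays, with the marker shape giving the array number, lines are means, and open points are not well above background. In each gene but SLA-DOB and SLA-DMA all CD4 arrays sit below all DP and CD8 arrays, as for SLA-DRA at 3.76 to 4.42 in CD4 T cells.

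SLA-DRA encodes the alpha chain of DR, which varies little between individuals and pairs with every DR beta chain. Its brightest probe, A_72_P561324, read 7.47, 5.76 and 7.52 in DP, 4.03, 3.76 and 4.42 in CD4 T cells and 7.59, 7.41 and 7.03 in CD8 T cells. The CD4 arrays lay below all others, and DP array 2 was the lowest of the remaining 6. DP exceeded CD4 T cells by 2.84 ± 0.45 (SE, 95% interval 1.86 to 3.83, limma adjusted p = 0.0202), by 2.00 on slide 2 and by 3.29 on slide 3. The adjusted p was 0.152 with the slide as a block, 0.0524 with normexp background correction and 0.0663 with only DP and CD4 arrays in the fit, and without DP array 1, CD4 array 1, 2 or 3 it was 0.155, 0.0553, 0.0795 or 0.0568. Another 5 SLA-DRA probes passed as well, so that 6 of 7 did, and the 7 differences ran from 2.75 to 3.35. The seventh, A_72_P610249, had the largest difference and the widest spread, since it read 2.77, 2.18 and -0.14 in DP and 0.02, -2.86 and -2.41 in CD4 T cells, where arrays 2 and 3 were not well above background.

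SLA-DRB1 encodes the DR beta chain, the polymorphic partner of DRA. Its brightest probe, A_72_P110316, read 6.58, 4.94 and 5.97 in DP, 3.49, 2.06 and 2.95 in CD4 T cells and 6.65, 4.61 and 6.06 in CD8 T cells. Array 2 was the lowest of its fraction in all 3, and the DP and CD4 arrays did not overlap. The DP minus CD4 difference of 3.00 ± 0.57 (SE, 95% interval 1.76 to 4.24) was as large as that of SLA-DQB1 and missed the threshold with a limma adjusted p of 0.0509. It was 2.89 on slide 2 and 2.75 on slide 3. The 4 probes of the gene gave 2.70 to 3.00, and none of them passed. Without DP array 2 or without CD8 array 2 the adjusted p was 0.0422 or 0.0358.

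SLA-DQB1, the beta chain of DQ, followed SLA-DRB1 closely from array to array. Its brightest probe, A_72_P672583, read 6.24, 4.998 and 6.03 in DP, 3.11, 2.22 and 2.95 in CD4 T cells and 6.77, 4.61 and 5.54 in CD8 T cells. Here too array 2 was the lowest of each fraction. DP was higher than CD4 T cells by 3.00 ± 0.53 (SE, 95% interval 1.85 to 4.14, limma adjusted p = 0.0338), by 2.78 on slide 2 and by 3.00 on slide 3. The call was lost without DP array 1, DP array 3, any 1 CD4 array or CD8 array 3, with adjusted p of 0.234, 0.0732, 0.0602 to 0.137 and 0.0557. It was also lost under 9 of the processing alternatives, with adjusted p of 0.0511 to 0.227, the highest with the slide as a block. A second SLA-DQB1 probe, A_72_P039061, passed with a difference of 3.16 (limma adjusted p = 0.0202), and the 4 probes spanned 2.76 to 3.17.

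SLA-DQA1, the alpha chain of DQ, had the smallest difference of the 4 peptide-binding chains, though differences between genes were not tested. Its brightest probe, A_72_P763148, read 6.34, 5.37 and 6.35 in DP, 4.21, 3.09 and 4.16 in CD4 T cells and 6.57, 4.73 and 5.84 in CD8 T cells. The fractions did not overlap between DP and CD4, and the difference of 2.20 ± 0.50 (SE, 95% interval 1.12 to 3.29) did not pass (limma adjusted p = 0.107). It was 2.29 on slide 2 and 2.17 on slide 3. All 7 probes lay between 2.00 and 2.35, a narrower range than for any other gene with 4 or more probes except SLA-DRB1. Of the 7, A_72_P720353 with 2.16 and A_72_P244477 with 2.02 passed (limma adjusted p = 0.0465 and 0.0382).

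**Figure D2:**
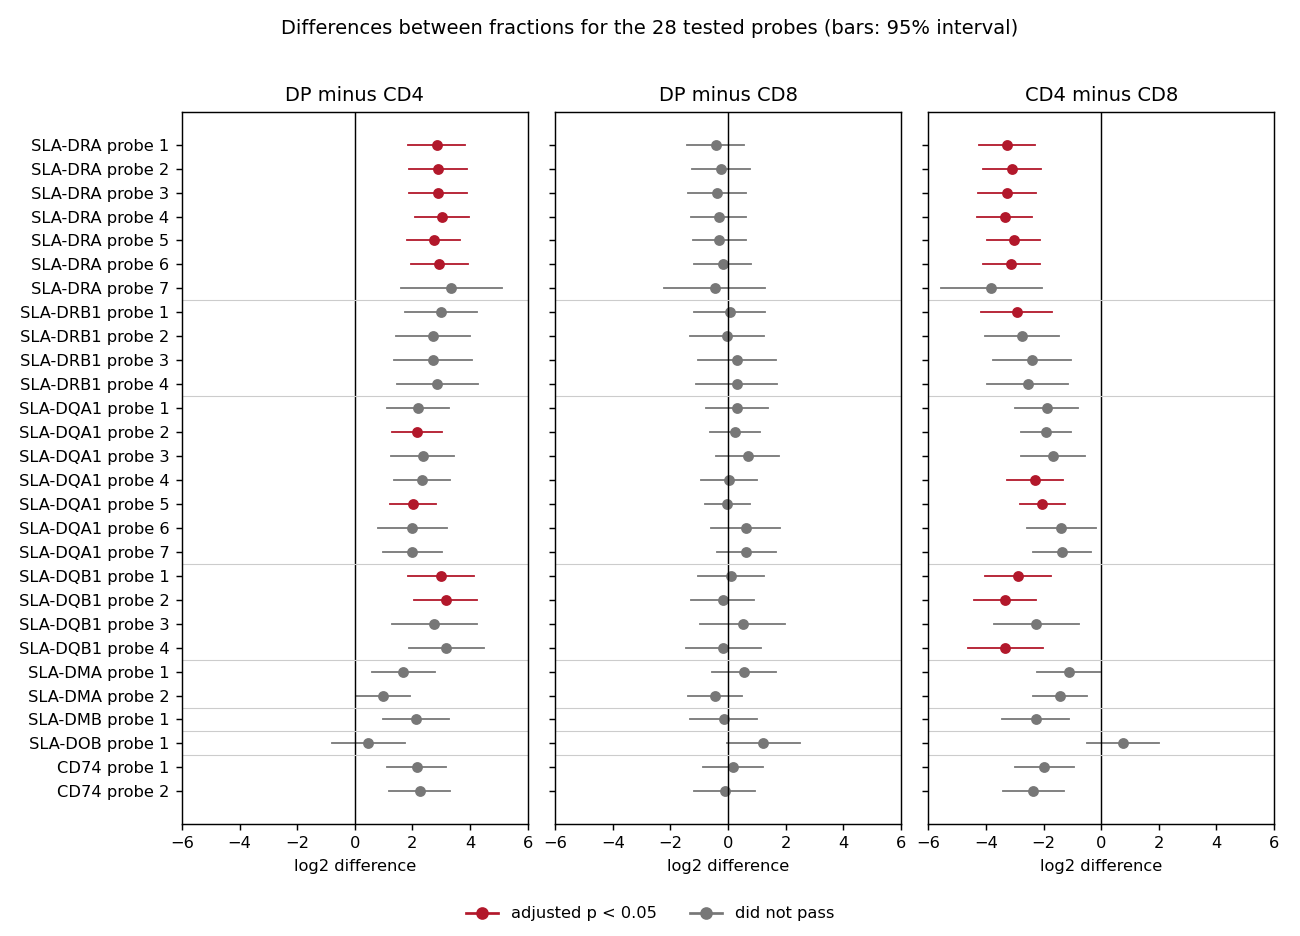
Log2 difference with its 95% interval (x axis) for each of the 28 tested probes in DP minus CD4, DP minus CD8 and CD4 minus CD8; red marks a limma adjusted p under 0.05 and grey the rest. In DP minus CD4 all 28 points lie above 0 and 10 are red, in DP minus CD8 none is red, and in CD4 minus CD8 27 lie below 0 and 12 are red.

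None of the 3 chaperone genes, which act on the loading of the groove, passed between DP and CD4 T cells. SLA-DMA, the alpha chain of the peptide exchanger DM, read 2.78, 2.10 and 2.74 in DP, 0.64, 0.94 and 1.01 in CD4 T cells and 2.72, 0.76 and 2.49 in CD8 T cells. CD8 array 2 lay among the CD4 arrays, and the DP and CD4 arrays did not overlap. DP minus CD4 was 1.68 ± 0.51 (SE, 95% interval 0.58 to 2.78) and did not pass (limma adjusted p = 0.336), with 1.17 on slide 2 and 1.92 on slide 3. The second SLA-DMA probe, A_72_P025111, gave a smaller 0.97 that did not pass (limma adjusted p = 0.986).

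SLA-DMB, the beta chain of DM, was well above background on 1 of 3 CD4 arrays only. Its tested probe read 0.27, -0.49 and -0.57 in DP, -2.32, -2.996 and -1.85 in CD4 T cells and 0.07, 0.15 and -0.55 in CD8 T cells. All CD4 arrays were lower than all others. DP minus CD4 was 2.13 ± 0.53 (SE, 95% interval 0.97 to 3.28, limma adjusted p = 0.168), which did not pass. With normexp background correction the difference was 0.35, so its size is not settled by these arrays. The second SLA-DMB probe was at background on at least 1 array of every fraction and was not tested.

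SLA-DOB, the beta chain of DO, had the smallest difference of the 8 genes. It read 1.22, 1.34 and 1.31 in DP, 0.54, 1.08 and 0.84 in CD4 T cells and 0.76, -1.51 and 0.95 in CD8 T cells. Every DP array lay above every CD4 array by a small margin, and the lowest array was CD8 array 2, where the probe was not well above background. DP minus CD4 was 0.47 ± 0.58 (SE), with a 95% interval of -0.79 to 1.73. That interval holds the 1.68 of SLA-DMA and ends below the values of the other 6 genes, and no test compared the genes. The second SLA-DOB probe was well above background on 1 DP array and 1 CD4 array and was not tested. SLA-DOA, the alpha chain of DO, was well above background on 1 DP array and on no other.

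CD74, the invariant chain, read 3.83, 2.76 and 2.88 in DP, 0.97, 1.03 and 1.00 in CD4 T cells and 3.81, 2.06 and 3.07 in CD8 T cells. The CD4 arrays lay within 0.03 (SD) of their mean and below all others. DP minus CD4 was 2.15 ± 0.48 (SE, 95% interval 1.12 to 3.18, limma adjusted p = 0.0918), with 1.73 on slide 2 and 1.89 on slide 3. The second CD74 probe gave 2.25 (limma adjusted p = 0.0854), so neither passed.

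DP cells and CD8 T cells had class II levels that the test did not separate. No member probe passed in either direction, where 0.131% of all tested probes were higher in DP and 0.181% lower, and none had an unadjusted limma p under 0.05, where 6.52% of all tested probes did. The median difference over the 8 genes was 0.15, with a range of -0.43 to 1.22, and 14 of the 28 probes were above 0. The intervals are wide, and they set how far the fractions could still differ: DP minus CD8 had a 95% interval of -1.41 to 0.56 for SLA-DRA, -1.18 to 1.30 for SLA-DRB1, -0.78 to 1.39 for SLA-DQA1 and -1.03 to 1.26 for SLA-DQB1. For the other members it was -0.54 to 1.65 for SLA-DMA, -1.30 to 1.00 for SLA-DMB and -0.85 to 1.21 for CD74. In each of these 7 genes the interval ends below that gene's own DP minus CD4 difference. Because the comparisons share 1 SE per probe, this only restates that the unadjusted CD4 minus CD8 interval lies below 0. It adds nothing on DP against CD8, and SLA-DQA1, SLA-DMA, SLA-DMB and CD74 did not pass between CD4 and CD8 T cells. Within slides the median over the 8 genes was -0.44 on slide 2 and 0.31 on slide 3.

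SLA-DOB had the largest gap between DP and CD8 T cells, 1.22 ± 0.58 (SE, 95% interval -0.04 to 2.48), and did not pass (limma adjusted p = 0.789). It was the only member probe whose DP arrays all lay above the CD8 arrays, which is a share near the 4.59% of all tested probes that did so. Without CD8 array 2 its difference was 0.44. No member probe had its DP arrays all below the CD8 arrays, against 5.2% of all tested probes.

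CD4 T cells were also lower than CD8 T cells in genes of class II, by 9.65-fold for SLA-DRA, 7.68-fold for SLA-DRB1 and 7.38-fold for SLA-DQB1, all of which passed. Of the 28 probes, 12 were lower in CD4 T cells, where 0.325% of all tested probes were, and no member probe was higher, where 0.112% were. These were 6 of SLA-DRA, 1 of SLA-DRB1, 2 of SLA-DQA1 and 3 of SLA-DQB1. In 24 of the 28 every CD4 array lay below every CD8 array, against 4.24% of all tested probes. The median over the 8 genes was -2.13, with a range of -3.27 to 0.76, and it was -2.83 on slide 2 and -1.88 on slide 3. This comparison shares its CD4 arrays with DP against CD4 and its CD8 arrays with DP against CD8, so the 3 sets of differences are not independent.

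SLA-DRA was the firmest of these. Its CD4 minus CD8 difference was -3.27 ± 0.45 (SE, 95% interval -4.25 to -2.29, limma adjusted p = 0.00661), with -3.74 on slide 2 and -2.80 on slide 3. It passed with each of the 9 arrays left out in turn, with an adjusted p of at most 0.0432, and 6 of its 7 probes passed, with differences from -3.82 to -3.04 over the 7. SLA-DRB1 differed by -2.94 ± 0.57 (SE, limma adjusted p = 0.0475) and SLA-DQB1 by -2.88 ± 0.53 (SE, limma adjusted p = 0.0327). Both lost the call without DP array 1, without any 1 CD4 array, and without CD8 array 1 or 3, with adjusted p of at most 0.254 for SLA-DRB1 and 0.168 for SLA-DQB1, and under 9 and 8 of the processing alternatives, with adjusted p of 0.0508 to 0.125 and 0.0663 to 0.108. The count of probes was 6 without CD4 array 2 or CD8 array 1 and 7 without CD8 array 3 or with the slide as a block. The share over all tested probes fell too, to 0.25%, 0.256%, 0.287% and 0.237% in either direction, against 0.437% in the main fit.

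Among the members that did not pass by their brightest probe, SLA-DQA1 differed by -1.90 (limma adjusted p = 0.234) and CD74 by -1.98 (limma adjusted p = 0.155). SLA-DMB differed by -2.28 (limma adjusted p = 0.132), or by -0.41 with normexp, and SLA-DMA by -1.12, with CD8 array 2 at the level of the CD4 arrays. The SLA-DOB difference was 0.76 with all arrays and -0.03 without CD8 array 2. Over all 3 fractions together, the F test of the same limma fit called 13 of the 28 probes, against 0.612% of all tested probes. By gene these were 6 probes of SLA-DRA, 3 of SLA-DQA1, 3 of SLA-DQB1 and 1 of SLA-DRB1.

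The order of the means was DP, CD8 T cells, CD4 T cells for 5 genes, namely SLA-DRB1, SLA-DQA1, SLA-DQB1, SLA-DMA and CD74. SLA-DRA and SLA-DMB had CD8 T cells first, then DP, then CD4 T cells. In these 7 genes the upper neighbours, DP and CD8 T cells, did not differ beyond their spread, and by their brightest probes only SLA-DRA, SLA-DRB1 and SLA-DQB1 separated CD4 T cells from CD8 T cells in the test. For SLA-DOB the order was DP, CD4 T cells, CD8 T cells, with no neighbours separated by the test. Class II transcripts were detected in the CD4 fraction, where the brightest probe of each peptide-binding chain was above background on each array. CD8A and the B cell gene CD79A were also well above background on all 3 CD4 arrays. Which cells of the fraction held the class II transcripts was not tested.

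The roles can be set side by side once each gene is centred on its own mean over the 9 arrays, since probes of different genes have no common scale. The 4 peptide-binding chains then averaged 0.92 ± 0.75 in DP, -1.84 ± 0.51 in CD4 T cells and 0.91 ± 0.78 in CD8 T cells (SD over arrays, n = 3 each). CD74 stood at 0.78 ± 0.58 in DP, -1.38 ± 0.03 in CD4 T cells and 0.60 ± 0.88 in CD8 T cells. The chaperones DMA, DMB and DOB together stood at 0.66 ± 0.22 in DP, -0.77 ± 0.21 in CD4 T cells and 0.11 ± 0.74 in CD8 T cells. DP minus CD4 was thus 2.76 for the peptide-binding chains, 2.15 for the invariant chain and 1.42 for the chaperones, or 1.90 for the chaperones without SLA-DOB. CD4 minus CD8 was -2.75, -1.98 and -0.88 in the same order, or -1.70 for the chaperones without SLA-DOB. With normexp background correction DP minus CD4 was 2.54 for the peptide-binding chains, 1.47 for CD74 and 0.53 for the chaperones, and CD4 minus CD8 was -2.35, -1.35 and -0.32 in the same order. The differences between roles were not tested.

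**Figure D3:**
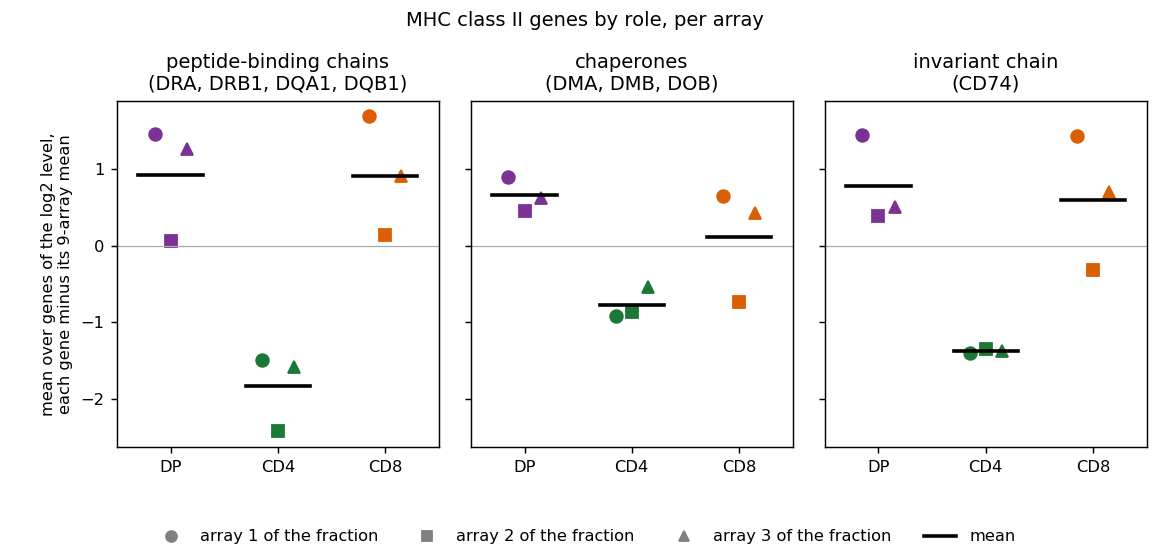
Mean centred level per array (y axis, log2, each gene minus its mean over 9 arrays) of the peptide-binding chains, the chaperones and the invariant chain in DP, CD4 T cells and CD8 T cells; points are arrays and lines are means. The CD4 arrays are the lowest for the peptide-binding chains and for CD74, at means of -1.84 and -1.38, whereas CD8 array 2 reaches down to the CD4 arrays for the chaperones.

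In each of the 6 genes with several tested probes, every probe had its lowest mean in CD4 T cells. The probes did not agree on DP and CD8 T cells: the sign of DP minus CD8 differed between probes of the gene in 5 of the 6, all but SLA-DRA, and no such difference passed. The arrays within a fraction varied too. Array 2 of each fraction tended to be low for the members. Relative to the mean of arrays 1 and 3, the 28 probes had a median of -0.59 on DP array 2, -0.75 on CD4 array 2 and -0.98 on CD8 array 2. Over all tested probes the same medians were -0.01, 0.12 and 0.16. Below 0 were 22 of 28 probes in DP, 21 in CD4 T cells and 23 in CD8 T cells, where 50.3%, 41.9% and 43.2% of all tested probes were.

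Every probe of SLA-DRB1 and SLA-DQB1 was below 0 in all 3 fractions in this measure. The lowest value was a SLA-DQB1 probe, A_72_P631166, which read 4.20, 0.97 and 3.61 in CD8 T cells. The probes of SLA-DQA1 disagreed there: A_72_P721473 read 3.81, 3.86 and 3.82 on the CD8 arrays, whereas A_72_P750437 read 4.71, 2.60 and 3.89. The part of the transcript that each probe targets was not used here. DP array 2 and CD4 array 2 share slide 2 with CD8 arrays 1 and 2, and CD8 array 1 was the highest of its fraction for 6 of the 8 genes.

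**Figure D4:**
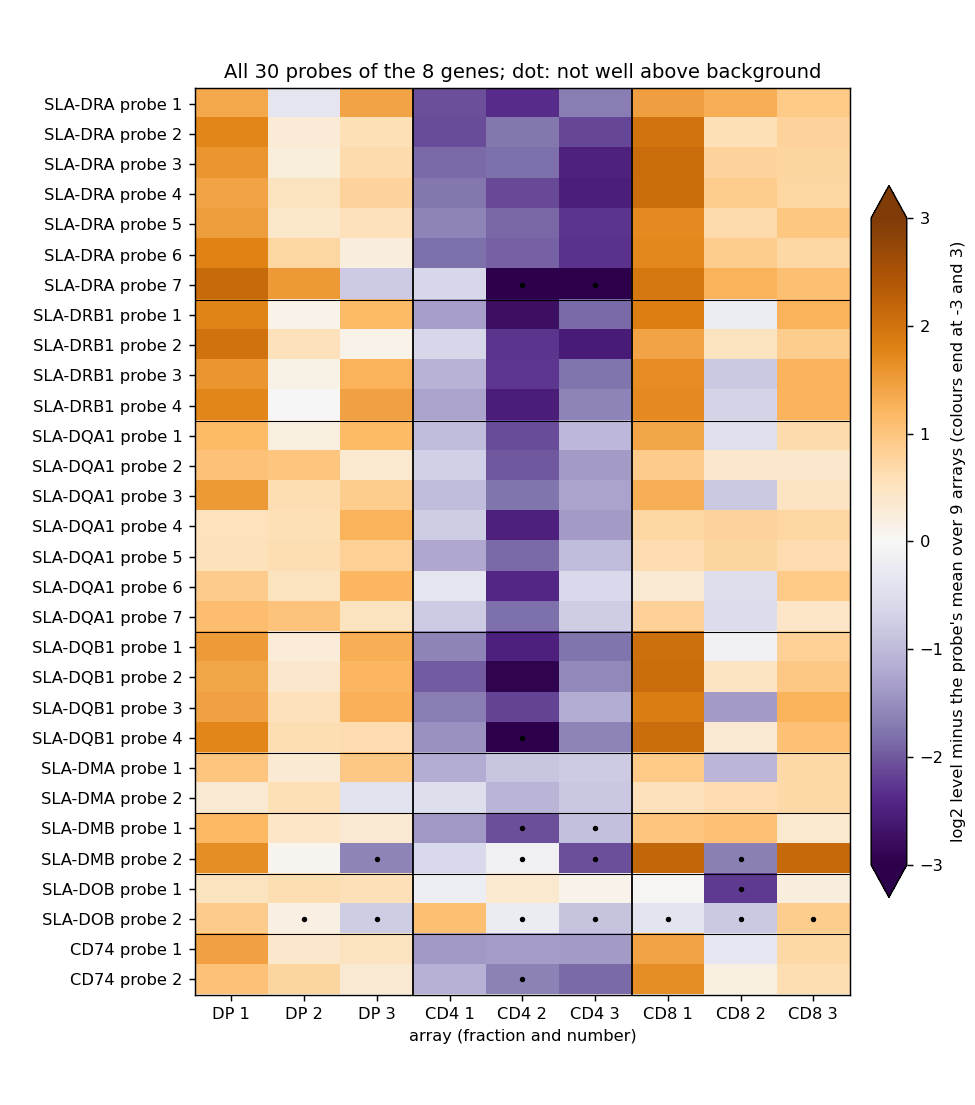
Each of the 30 probes (rows) on each array (columns: DP, CD4 and CD8, arrays 1 to 3), as the log2 level minus the probe's mean over 9 arrays; orange is higher, violet lower, and a dot marks a probe not well above background. The violet block covers the CD4 arrays for nearly all probes of DRA, DRB1, DQA1, DQB1 and CD74, and array 2 is the palest or darkest column of its fraction in most SLA-DRB1 and SLA-DQB1 rows.

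The members' own profiles were close to each other. Over the 9 arrays, the correlation with the mean of the 4 peptide-binding chains was 0.99 for SLA-DRB1, 0.98 for SLA-DQA1 and 0.95 for SLA-DRA, all of which are part of that mean. CD74, which is not, had an r of 0.95, SLA-DMB 0.91 and SLA-DMA 0.86, whereas SLA-DOB had 0.06. Outside the members, the 5 of 1499 named genes with the most similar profile were KLRK1 at 0.95, PTH1R at 0.93, ADGRG1 at 0.92, IFNG at 0.91 and S1PR5 at 0.91. All points share the 3 fractions, so a gene that is low in CD4 T cells alone scores high in this measure. KLRK1 (the activating receptor NKG2D of cytotoxic cells), ADGRG1 (GPR56, a receptor of cytotoxic lymphocytes), IFNG (interferon gamma) and S1PR5 (a sphingosine phosphate receptor of cytotoxic and natural killer cells) were each higher in DP than in CD4 T cells and lower in CD4 than in CD8 T cells in the limma test. PTH1R, the parathyroid hormone receptor, was well above background on none of the 3 CD4 arrays and did not pass.

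The transcription factors of class II genes gave no matching difference where they could be read. Of 11 genes on a list of class II transcription, 4 were named on the array and 3 were tested. None passed in any comparison. The smallest p belonged to IRF1, an interferon-induced factor that acts on CIITA, at 1.43 ± 0.44 in DP, 1.45 ± 0.64 in CD4 T cells and 0.92 ± 0.40 in CD8 T cells (SD, n = 3 each). No CIITA probe was named on the array.

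Interferon gamma itself differed like the class II genes. Of 8 genes on the interferon gamma list, 6 were tested, and IFNG alone passed. It read 1.85, 1.21 and 1.28 in DP, -3.09, -2.45 and -2.99 in CD4 T cells, where 1 array was well above background, and 1.81, 0.91 and 0.05 in CD8 T cells. DP was higher than CD4 T cells by 4.29 ± 0.52 (SE, limma adjusted p = 0.00589), and CD4 T cells were lower than CD8 T cells (difference -3.77, limma adjusted p = 0.00661). The sizes of both IFNG differences rest on CD4 signals near background. IFNGR2, a chain of the interferon gamma receptor, lay the other way without passing. Its DP minus CD4 was -1.61 and its CD4 minus CD8 1.58 (limma adjusted p = 0.171 and 0.206). The medians of the 6 genes were -0.10 for DP minus CD4, -0.04 for DP minus CD8 and -0.01 for CD4 minus CD8.

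The tested genes of class II processing and turnover, and the tested costimulatory ligands that accompany class II on presenting cells, gave no call. Of 17 genes of processing and turnover, 8 were named and 5 tested, with medians of 0.43, 0.58 and 0.22 for DP minus CD4, DP minus CD8 and CD4 minus CD8. The 5 were the cathepsins CTSB, CTSD and CTSH, with LAMP1 and CLTC, which are not proteases. The proteases CTSS, CTSL and LGMN of the list were not named on the array, so they could not be read. CTSB, the endosomal protease cathepsin B, had the smallest p of that list, with DP minus CD8 of 0.93 ± 0.41 (SE, limma adjusted p = 0.74). Of 7 costimulatory genes, 5 were named and 2 tested. CD86, a ligand of CD28, read 2.41, 2.25 and 1.63 in DP, -1.51, 0.76 and -1.01 in CD4 T cells and 1.95, 0.71 and -0.44 in CD8 T cells. DP and CD4 arrays did not overlap, and the difference of 2.68 ± 0.67 (SE) did not pass (limma adjusted p = 0.168). CD40 and PDCD1LG2 were well above background on no array.

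Markers of T cell activation, a state in which human T cells express class II, did not pass either. Of 14 genes, 6 were named and 2 tested, and IL2RA, the high-affinity interleukin 2 receptor chain, was well above background on no array. ICOS, a costimulatory receptor of activated T cells, had DP minus CD4 of 1.31 ± 0.52 (SE, limma adjusted p = 0.767), with medians for the list of -0.06, -0.25 and -0.19 for DP minus CD4, DP minus CD8 and CD4 minus CD8.

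Because B cells, monocytes and dendritic cells express class II strongly, their markers were read beside these results. Summed over a list, levels are given in units of the array's 75th percentile. The 8 members summed to 173 to 455 in DP, 37.1 to 60.8 in CD4 T cells and 253 to 520 in CD8 T cells. The B cell list, with 5 of 18 genes named, summed to 0.75 to 3.21 in DP, 1.23 to 2.43 in CD4 T cells and 5.72 to 13.1 in CD8 T cells, and FCER2 was well above background on no array. DP and CD4 arrays overlapped in this sum. DP array 2 was the lowest of all 9 in it, at 0.75, and also the lowest DP array in the class II sum, at 173, and in the monocyte sum, at 2.13. Other arrays did not keep this order. DP array 3 had the highest DP sums of B cells and monocytes, at 3.21 and 14.2, but a class II sum of 410 against 455 on DP array 1. CD4 array 2 had the lowest class II sum, at 37.1, and was not the lowest CD4 array for B cells or monocytes. The part of B cell RNA in the DP and CD4 difference was not tested.

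CD8 T cells held more B cell signal than the others. CD79A, a signalling subunit of the antigen receptor on B cells and the only tested gene of the list, read 0.48, -1.50 and 0.86 in DP, -0.10, -0.04 and 0.64 in CD4 T cells and 3.50, 2.39 and 3.56 in CD8 T cells. It was lower in DP than in CD8 T cells (difference -3.20, limma adjusted p = 0.0452), and CD4 minus CD8 was -2.98 (limma adjusted p = 0.0561). Between DP and CD4 T cells it differed by -0.22, with no pass. CD79A thus moved with the class II genes between the CD4 and CD8 fractions, where the median over the 8 genes was -2.13. In the other comparisons they parted, with class II medians of 0.15 for DP minus CD8 and 2.18 for DP minus CD4. The part of B cell RNA in the difference between CD4 and CD8 T cells was not tested.

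The monocyte list, with 15 of 22 genes named, summed to 2.13 to 14.2 in DP, 4.78 to 7.24 in CD4 T cells and 7.21 to 15.6 in CD8 T cells. None of its 6 tested genes passed, and S100A8, S100A9, TLR2 and TLR4 were well above background on no array. AIF1, a calcium-binding protein of monocytes and macrophages, had the smallest p, with CD4 minus CD8 of -1.95 ± 0.67 (SE, limma adjusted p = 0.614). Of 13 dendritic cell genes only XCR1 was named on the array, and it was well above background on 1 CD4 array, so that dendritic cells could hardly be read. The natural killer list, with 5 of 8 genes named, summed to 43.5 to 112 in DP, 6.04 to 14.7 in CD4 T cells and 31.0 to 81.4 in CD8 T cells, and so moved with the class II genes, while NCR1 was well above background on no array. Of its 3 tested genes only KLRK1 passed by its brightest probe, higher in DP than in CD4 T cells by 5.21 ± 0.63 (SE, limma adjusted p = 0.00589) and lower in CD4 than in CD8 T cells (difference -6.38, limma adjusted p = 0.000985). Its probe was well above background on 1 of 3 CD4 arrays, so the sizes of both differences rest on signals near background. FCGR3A had DP minus CD4 of 2.81 ± 0.54 (SE, limma adjusted p = 0.0509) by its brightest probe. Of its 3 tested probes, 1 passed in that comparison. The part of natural killer and monocyte RNA in the class II result was not tested.

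**Figure D5:**
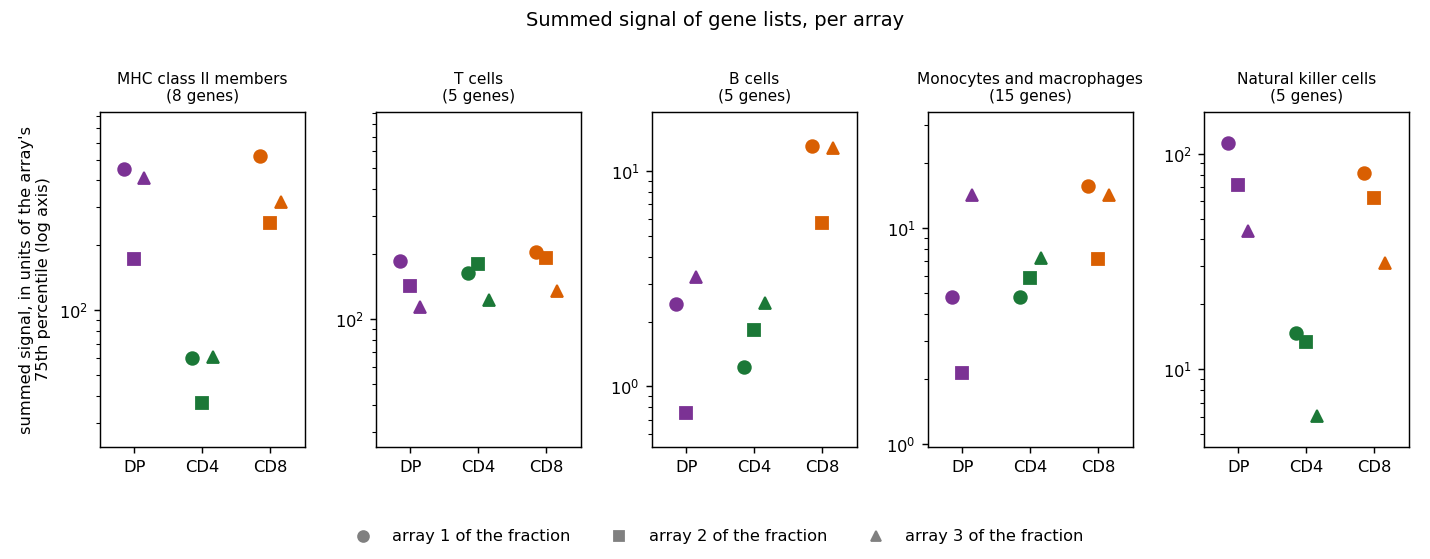
Signal summed over the MHC class II genes and over markers of T cells, B cells, monocytes and natural killer cells (y axis, units of the array's 75th percentile, log axis) in DP, CD4 T cells and CD8 T cells; points are arrays. Class II sums are 173 to 455 in DP and 37.1 to 60.8 in CD4 T cells, where the T cell sums of 114 to 187 and 123 to 181 and the B cell sums overlap.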

How the data were processed

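The deposited scanner files hold a processed intensity on a linear scale, made with Agilent Feature Extraction 11.0.1.1 per the file headers and the submitters' processing notes, corrected for background and not normalized between arrays. Per the labels' protocols, 25 ng of RNA was amplified and labelled with Cy3. The deposited log2 table of the series, an alternative here, is quantile normalized by its values, with every column at a median of 2.60 and brighter spots at larger values; its program was not stated in the sources read. Its CD8 columns 1, 2 and 3 follow scanner files 3, 1 and 2, and the DP and CD4 columns follow their own.

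Levels are log2 processed signals from which each array's 75th percentile, taken over probes other than controls, was subtracted, after outlier spots (1 to 12 per array) were left out and spots of a probe averaged. A probe was tested where all 3 arrays of some fraction had it well above background and each fraction had 2 values (16024 of 43603). All 9 arrays entered 1 fit in limma 3.58.1 (R 4.3.3) with a variance trend, no block, and p-values adjusted by Benjamini-Hochberg over these probes at 0.05. The fit was tested on simulated data. Figures used Python 3.11.15 and matplotlib 3.10.9. The number of arrays limits the precision.

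Probes were named through their sequence identifiers in an annotation of Sscrofa11.1, which named 6730 probes; the files name no build, so no coordinates are given. A gene was taken by its brightest tested probe. Named genes were the 8 members with their probes, CD3D, CD3E, CD3G, CD4 and CD8A, up to 4 called genes per list or else the gene with the smallest p, and the 5 genes most like the members; others were named after their values were seen. The members and lists were chosen with earlier results of these data known. Where normexp was planned on the mean signal, the median signal was used, since the mean is not among the columns of these files.

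Samples with 1 number are not said to share an animal. Their deviations from the fraction means correlated at -0.07 to 0.65 over 9 pairs, so the number was used as a block only as an alternative. Other alternatives were the slide as a block, normalization, the filter on dim probes, the variance model, the samples in the fit, the mean over a gene's probes, and each array left out.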

Additional observations from a re-analysis of the deposited data

How the results depend on the processing

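Over the alternatives to the processing, DP stayed above CD4 T cells in all 8 genes, and CD4 T cells stayed below CD8 T cells in all but SLA-DOB. Calls moved, and so did sizes under normexp, where SLA-DMB gave 0.35 for DP minus CD4 and -0.41 for CD4 minus CD8. The main fit called 10 member probes for DP against CD4 and 0.293% of all tested probes. The 10 became 24 with a replicate block (0.899% of all tested probes called) and 21 with no filter on dim probes (0.25% of 43603 probes). They became 6 with the replicate block and the CD8 arrays numbered as in the deposited table (0.187%). With the slide as a block or with normexp they became 0, and each of these called 0.0125% of all tested probes. The 2 genes became 5 with the replicate block or no filter, adding SLA-DRB1, SLA-DQA1 and CD74 (limma adjusted p = 0.00356, 0.00848 and 0.0316 with the block), 0 with the slide or normexp, and 1 with the block in the deposited numbering, quantile normalization, the percentile over detected probes, the deposited table, only probes above background on all 9 arrays, no variance trend, only the 2 fractions compared, or the mean of a gene's probes. For CD4 against CD8, 12 probes became 19 with the replicate block (0.686% of all tested probes called, against 0.437% in the main fit). They became 7 with the slide, normexp, only probes above background on all 9 arrays or no variance trend, where 0.237%, 0.293%, 0.108% and 0.431% of all tested probes were called. The 3 genes became 1 under each of these 4, with quantile normalization, the percentile over detected probes, the deposited table, or the block in the deposited numbering. The 13 probes of the F test became 22 with the replicate block or no filter, 4 with the slide and 8 with only probes above background on all arrays. For these F tests the share over all probes is not given here. Under normexp the median of the 8 genes for CD4 minus CD8 was -1.47, the chaperones gave 0.53 for DP minus CD4 and -0.32 for CD4 minus CD8, and CD74 gave 1.47 and -1.35. The causes were not tested. The numbers are not shown to pair the samples: same-number deviations correlated with a median of 0.31 (-0.07 to 0.65, 9 pairs), against -0.14 (-0.57 to 0.42, 18 pairs) for different numbers.

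With each array left out in turn, the probes called ran from 0 to 11 for DP against CD4, stayed at 0 for DP against CD8, and ran from 6 to 14 for CD4 against CD8 and 5 to 15 in the F test. The share of all tested probes called varied as well. It ran from 0.0125% to 0.343% for DP against CD4, 0.00624% to 0.318% for DP against CD8 and 0.193% to 0.505% for CD4 against CD8. The genes ran from 0 to 3, stayed at 0, and ran from 1 to 3. The median over 8 genes ran from 1.95 to 2.44 for DP minus CD4, -0.24 to 0.64 for DP minus CD8 and -2.41 to -1.87 for CD4 minus CD8. In those comparisons the peptide-binding chains ran from 2.47 to 3.19, -0.38 to 0.44 and -3.14 to -2.36, the chaperones from 1.31 to 1.54, 0.12 to 0.81 and -1.31 to -0.61, and CD74 from 1.82 to 2.35, -0.28 to 0.59 and -2.44 to -1.56.

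Differences that changed sign were all uncalled, the largest being CD4 minus CD8 of SLA-DOB at 0.76 and DP minus CD8 of SLA-DMA at 0.56. For DP minus CD8, the slide as a block gave SLA-DRB1 -0.46, SLA-DQB1 -0.22 and CD74 -0.17. Over the arrays left out, DP minus CD8 ran from -0.73 to 0.15 for SLA-DRA, -0.52 to 0.50 for SLA-DRB1, -0.19 to 0.73 for SLA-DQA1, -0.40 to 0.68 for SLA-DQB1, -0.059 to 0.92 for SLA-DMA, -0.42 to 0.0032 for SLA-DMB and -0.28 to 0.59 for CD74, and CD4 minus CD8 ran from -0.031 to 1.20 for SLA-DOB. The sign turned without CD8 array 2 for SLA-DRB1, SLA-DQA1, SLA-DQB1, SLA-DMA, CD74 and SLA-DOB, without DP array 1 for SLA-DRB1, SLA-DQB1 and CD74, without DP array 2 for SLA-DRA, and without DP array 3 for SLA-DRB1, SLA-DQB1 and SLA-DMB. SLA-DMB and SLA-DOB, with 1 tested probe each and arrays not above background, are the least well measured.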
